A study of Mus musculus with 30 samples.

Results

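Loss of Mif was examined in F4/80-sorted bone marrow cells of mice without leukaemia, by setting 3 arrays of Mif-/- marrow (KO-nl-BM, knockout) against 3 arrays of Mif+/+ marrow (WT-nl-BM, wild type). These 6 arrays were chosen by their titles out of the 30 in the series, and all 11937 genes with a detected probe were compared. Every mouse, wild type included, was TCL1+/wt, that is, it carried the Eµ-TCL1 transgene, which drives the TCL1 oncogene in B cells and models chronic lymphocytic leukaemia. The strain was given as C57BL/6 and the age as 10 to 15 months in both groups, and leukaemia was labelled as absent. The leukaemic mice of the series are labelled 2 to 5 months old, although leukaemia in this model develops with age, and whether the age ranges were exchanged could not be checked here. Cells had been sorted by flow cytometry for F4/80, a surface receptor of mouse macrophages that eosinophils and some monocytes also carry. The labels name no cell type to which the Mif deletion is limited, and they do not say whether the genotypes were littermates or which arrays share an animal. The p-values therefore measure the spread between arrays. Between 16527 and 18145 probes were detected per array, 36.5% to 40.1% of the 45281 on the array. Knockout replicate 1 shared slide 1 with wild-type replicate 1, knockout replicate 2 shared slide 4 with wild-type replicate 3, and the other arrays were on slides 5 and 2.

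Macrophage migration inhibitory factor, the product of Mif, is a cytokine that many cells hold preformed and release on stimulation. It signals through Cd74 with Cd44 as the transducing partner, and also binds the chemokine receptors Cxcr2 and Cxcr4. Inside cells it binds Cops5, and it counteracts glucocorticoid suppression of inflammatory cytokines. Ddt encodes its closest relative, which also binds Cd74. In bone marrow F4/80 marks, among others, the central macrophages of erythroblastic islands, around which red cell precursors mature.

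Mif itself separated the genotypes. Its normalised log2 intensity was 10.90, 10.58 and 11.51 on the wild-type arrays and 4.28, 4.18 and 4.35 on the knockout arrays. No knockout array detected the probe, and all wild-type arrays did. Mif fell by 6.73 ± 0.36 (SE) on the log2 scale (limma adjusted p = 8.5e-12), and because the knockout level lay below detection the fold is a bound, at least 95.2-fold lower. A bound here sets the mean of the bright group against the lowest detected level of each array in the dim group. A second, dimmer Mif probe differed by -2.07.

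At an adjusted p under 0.05, 9 of the 11937 genes were called, 0.0754% of those tested, and they lay in both directions, 3 higher (0.0251%) and 6 lower (0.0503%) in the knockout. An unadjusted p under 0.05 was reached by 675 genes (5.65%), 340 higher (2.85%) and 335 lower (2.81%), against 597 that a test without any difference would give. The median difference over all genes was -0.01. Apart from Mif, the genes that fell were Cap1, Zfp985, Zfp979, 1190007I07Rik and Trappc2l, and those that rose were Casp9, Gpn2 and Nlgn2. Of the 9, 5 lie on chromosome 4 (Cap1, Gpn2, Casp9, Zfp985 and Zfp979), which holds 721 or 6.04% of the genes tested, and 2 on chromosome 10 (Mif and 1190007I07Rik).

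**Figure D1:**
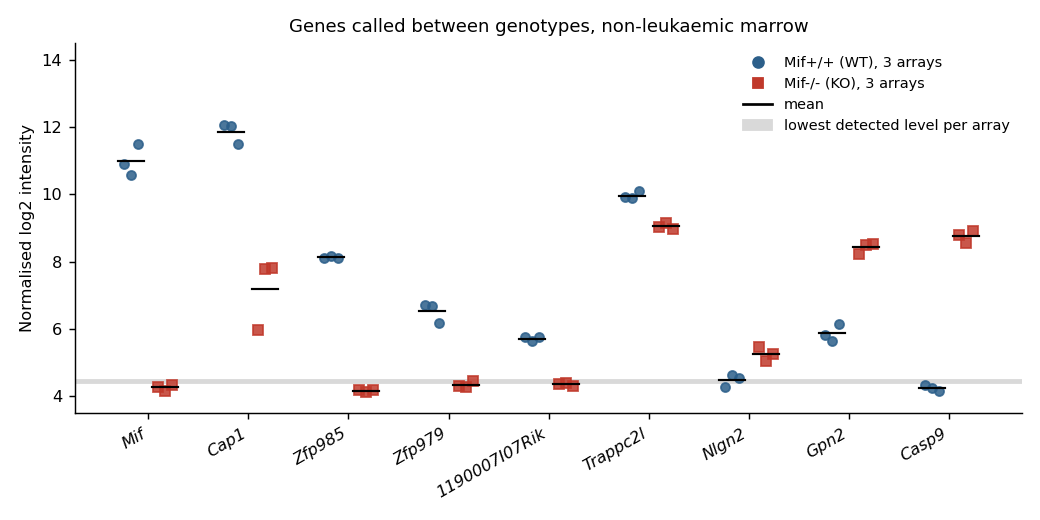
Normalised log2 intensity (vertical axis) of the 9 called genes on each of the 6 non-leukaemic marrow arrays, circles for wild type, squares for knockout and lines for group means, with the lowest detected level of the arrays as a grey band. Mif, Zfp985, Zfp979 and 1190007I07Rik sit at the band in the knockout and Casp9 sits there in wild type, while Cap1 spans 5.98 to 7.82 among the knockout arrays.

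A pair of zinc finger genes that neighbour each other among the genes tested fell together, and another neighbour lay on the opposite side. Zfp985 was at 8.10, 8.18 and 8.11 on the wild-type arrays and at 4.18, 4.15 and 4.20 on the knockout arrays, none of which detected it. It fell by 3.96 ± 0.72 (SE), at least 13.1-fold lower, with limma adjusted p = 0.030. Zfp979 stood at 6.71, 6.69 and 6.19 in wild type against 4.32, 4.27 and 4.47 in the knockout, where 1 array detected it, and fell by 2.18 ± 0.39 (limma adjusted p = 0.030). The groups did not overlap in either gene (9.66% of all genes tested were lower in the knockout without overlap), and a second Zfp979 probe differed by -2.25. Zfp933, the next tested gene after Zfp979, was detected on all knockout arrays at 5.62, 5.04 and 5.50 and on no wild-type array, at 4.39, 4.17 and 4.23. Its difference of +1.12 ± 0.25 did not pass (limma adjusted p = 0.11). To show how alike the 2 genes that fell are at their starts, the 150 bases from 100 before to 50 after the annotated start are given from RefSeq (GRCm38.p6), 5′ to 3′ in the direction of the gene, with the longest run shared by the pair in capitals. Zfp979 is read from the minus strand, chr4:147642459-147642608, and Zfp985 from the plus strand, chr4:147553177-147553326.
Zfp979: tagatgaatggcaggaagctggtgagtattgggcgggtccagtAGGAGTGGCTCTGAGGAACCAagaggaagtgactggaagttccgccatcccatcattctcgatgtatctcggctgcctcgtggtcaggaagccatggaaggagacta
Zfp985: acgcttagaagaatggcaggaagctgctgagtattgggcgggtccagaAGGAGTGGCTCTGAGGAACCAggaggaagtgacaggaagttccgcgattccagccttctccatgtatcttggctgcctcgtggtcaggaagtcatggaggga
The stretches matched at 133 of 155 aligned positions (85.8%), and the shared run was 21 bases long. Zfp933 matched them at 44.7% (Zfp979) and 43.3% (Zfp985). Genes this alike may share signal on a bead array, and whether each probe reads 1 gene alone was not tested.

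Casp9 and Cap1, both on chromosome 4, showed the widest differences among the called genes after Mif. Casp9 encodes the initiator caspase of the mitochondrial death pathway. It was at 8.79, 8.56 and 8.92 on the knockout arrays and at 4.33, 4.25 and 4.16 on the wild-type arrays, none of which detected it. Casp9 rose by 4.51 ± 0.87 (SE), at least 19.4-fold higher (limma adjusted p = 0.034). Its probes disagreed: a second differed by +0.56, and the last, detected on the wild-type arrays alone, by -0.82. No other gene among the 19 tested on the apoptosis list passed, and the median of that list was -0.07. Cap1, whose product recycles actin monomers, was at 12.06, 12.03 and 11.49 in wild type and at 5.98, 7.78 and 7.82 in the knockout. Cap1 fell by 4.66 ± 0.88 (limma adjusted p = 0.032), and knockout replicate 1 was the lowest array. Among the 23 tested migration and adhesion genes it was the single call, with a list median of -0.05.

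The remaining calls were smaller. Gpn2, a GTPase linked to RNA polymerase assembly, was at 8.24, 8.51 and 8.52 in the knockout and 5.83, 5.65 and 6.16 in wild type and rose by 2.55 ± 0.46 (SE; limma adjusted p = 0.030). Nlgn2, an adhesion protein of inhibitory synapses, stood at 5.46, 5.06 and 5.25 against 4.29, 4.64 and 4.54 and rose by 0.77 ± 0.15 (limma adjusted p = 0.034). In wild type Nlgn2 was near the detection limit, and 2 of the 3 arrays detected it. Trappc2l, a subunit of a vesicle tethering complex, fell by 0.91 ± 0.17 (limma adjusted p = 0.030), from 9.91, 9.89 and 10.08 to 9.04, 9.16 and 8.97. None of these 3 genes overlapped between the groups, which held for 2107 or 17.7% of all genes tested. The transcript 1190007I07Rik, on the chromosome of Mif and 132 tested genes away from it, was at 5.75, 5.64 and 5.76 in wild type. The knockout arrays gave 4.36, 4.41 and 4.33 and did not detect it, so the gene was at least 2.46-fold lower (log2 difference -1.35 ± 0.19, limma adjusted p = 0.0013).

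How firmly a gene was called depended on the arrays in the fit. All 9 differences had the same sign on slide 1 and on slide 4, with 1 array of each genotype per slide. That was bound to be so, because the groups did not overlap in any called gene, and it adds nothing to the calls. Leaving out any of the 6 arrays left 2 to 5 calls, and Mif and 1190007I07Rik alone were called in every such fit. Zfp979 was also called without wild-type replicate 3, together with the eosinophil chemokine receptor Ccr3. With quality weights per array 1448 genes were called, and with only these 6 arrays in the fit 37 were. The weighted fit leaned on 1 array per genotype. Wild-type replicate 1 weighed 6.93 and knockout replicate 3 weighed 4.39, against 0.68 to 1.34 for the rest of the 6 arrays.

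**Figure D2:**
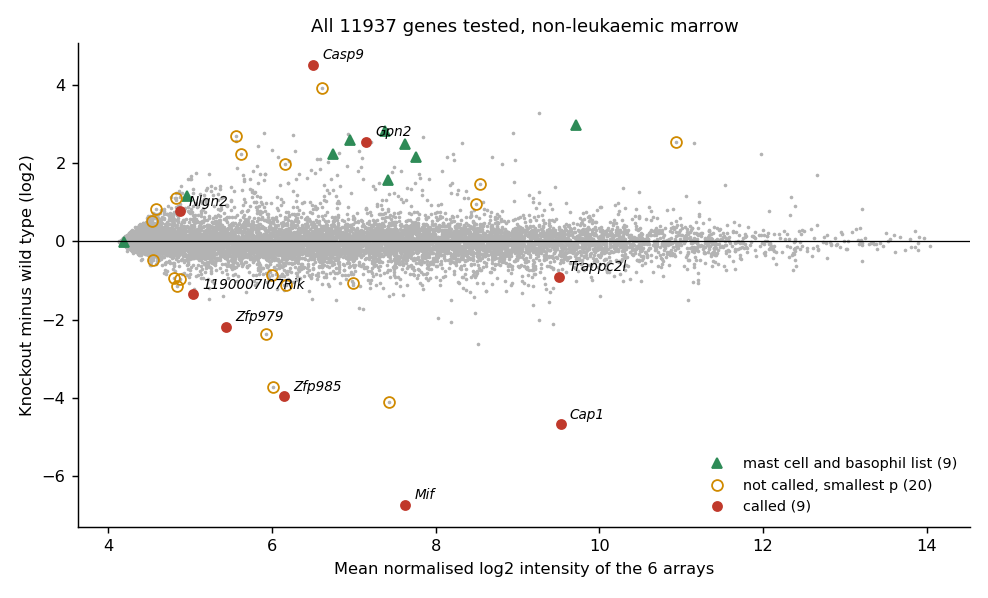
Knockout minus wild-type difference (vertical axis, log2) against the mean normalised log2 intensity of the 6 arrays (horizontal axis) for all 11937 genes tested. Filled circles are the 9 called genes, open circles the 20 uncalled genes with the smallest p, and triangles the 9 mast cell and basophil genes, 8 of which lie above 0.

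The receptors and partners of Mif gave no call. Cd74 was at 11.92, 12.18 and 10.96 in wild type and at 10.92, 12.33 and 11.66 in the knockout, a difference of -0.05 ± 0.94 (SE). The Cd44 level was 10.23 ± 0.11 (SD, n = 3) in the knockout and 10.28 ± 0.17 in wild type, and that of Cxcr4 9.64 ± 0.08 and 9.67 ± 0.13. Cxcr2, which mature neutrophils carry, ran from 5.01 to 8.56 in the knockout and from 4.33 to 6.22 in wild type. All of these overlapped, as did Ddt at 4.67 ± 0.40 (SD, n = 3) and 4.90 ± 0.11, the intracellular partner Cops5 and the redox protein Txn1. The standard errors were 0.34 for Cd44, 0.60 for Cxcr4 and 1.13 for Cxcr2. Differences several times these sizes could also be missed with these arrays, since Supt16, at 3.91 ± 0.82 (SE), was not called.

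Of the genes not called but detected on all 3 arrays of the brighter group, the 10 per direction with the smallest p are given as values. The 10 higher ones differed by 0.53 to 3.91, with adjusted p from 0.077 to 0.13. Supt16, a subunit of the histone chaperone FACT, was at 8.71, 8.70 and 8.27 in the knockout and 4.77, 4.28 and 4.92 in wild type, yet a second probe differed by -0.93. Grina was at 12.64, 11.87 and 12.08 against 9.69, 10.05 and 9.27. The others were Pnp2, a purine nucleoside phosphorylase, Srpr, the receptor of the signal recognition particle, the glycosyltransferase C1galt1, the complement protease C1ra, Tmem71, Zfp131, Atrnl1 and Zfp933. For C1galt1 a second probe, detected on all 6 arrays, differed by +0.02, and further Zfp933 probes by +0.65 and +0.04. Among the 10 lower ones Fmr1, a translational repressor on the X chromosome, was at 6.77, 6.66 and 6.76 in wild type and 5.36, 5.74 and 5.72 in the knockout. Rnase2a, an eosinophil-associated ribonuclease, differed most, at 9.50, 8.69 and 10.24 against 5.36, 5.91 and 4.89, and Baiap2l1, which shapes actin at membranes, was detected on the wild-type arrays alone, at 7.90, 7.56 and 8.16. Paip1, which binds the poly(A)-binding protein, differed by -2.36, and Zfp131, 3 tested genes away, by +0.96. On chromosome 14 Rnase2a likewise lies 6 tested genes from Pnp2 and 7 from Supt16. Cript, Gabra3, Gadd45gip1 and 3 kallikreins made up the rest. Second probes of Cript and Gadd45gip1 differed by -0.28 and +0.04. Not overlapping between the groups was common in these data, at 2107 genes or 17.7% of those tested, 954 (7.99%) higher and 1153 (9.66%) lower.

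The 3 kallikreins, secreted serine proteases of the Klk1 family on chromosome 7, were dim on every array. Klk1b21 and Klk1b26 are neighbours among the genes tested, and Klk1b5 lies 2 tested genes from Klk1b26. Klk1b26 was at 5.49, 4.68 and 6.10 in wild type and at 4.33, 4.11 and 4.38 in the knockout, where no array detected it. Klk1b21 was at 5.35, 4.86 and 5.89 against 4.31, 4.34 and 4.54, and Klk1b5 at 5.18, 4.69 and 5.95 against 4.39, 4.13 and 4.48. In each, wild-type replicate 3 was the highest array and replicate 2 the lowest of the wild types, and the groups did not overlap. Of the 6 tested members of the Klk1 family all 6 had a lower knockout mean, with a median of -1.06. Of these, 5 did not overlap (background 9.66%), Klk1 at -1.46 and Klk1b27 at -1.21 beside the 3 above. The family was looked at after those 3 had been picked by their p, so its count is not independent of that choice. None of the 6 passed with the intensities of all arrays. Klk1b26, Klk1b21 and Klk1b5 did without wild-type replicate 2, and these 3 and Klk1 did with the authors' log2 values. Their starts are shown in the same window (RefSeq, GRCm38.p6, plus strand) to let the family resemblance be seen, with the letters TTTAAA in capitals, at chr7:44216374-44216523 for Klk1b5, chr7:44102192-44102341 for Klk1b21 and chr7:44012578-44012727 for Klk1b26.
Klk1b5: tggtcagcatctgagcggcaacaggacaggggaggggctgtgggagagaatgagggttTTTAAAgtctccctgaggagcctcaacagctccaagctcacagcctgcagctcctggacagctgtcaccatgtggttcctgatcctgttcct
Klk1b21: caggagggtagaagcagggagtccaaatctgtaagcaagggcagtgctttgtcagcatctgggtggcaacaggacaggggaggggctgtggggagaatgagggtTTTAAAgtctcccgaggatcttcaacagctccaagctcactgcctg
Klk1b26: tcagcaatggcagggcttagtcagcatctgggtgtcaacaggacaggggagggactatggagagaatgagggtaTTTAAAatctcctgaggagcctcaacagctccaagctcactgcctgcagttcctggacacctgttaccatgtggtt
TTTAAA reads the same on both strands, and 5.6% of the 32851 promoters of this length held it. Klk1b5 and Klk1b26 shared a run of 30 bases, Klk1b5 and Klk1b21 one of 28, and Klk1b21 and Klk1b26 one of 25. Signal on the 3 probes may come from the same transcripts, which was not tested.

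Markers of other cell types are given by their counts and medians, since no member of these lists passed over all genes tested and the lists themselves were not tested. Fewer cells of a type and less RNA per cell cannot be told apart in these sorted samples. Of the 9 mast cell and basophil genes 8 were higher in the knockout, with a median of +2.24 against -0.01 over all genes, and 5 did not overlap (background 7.99%). Prss34, a basophil protease, was at 12.69, 9.31 and 11.62 in the knockout and 8.29, 8.40 and 8.0 in wild type. Gata2, a transcription factor of basophils, mast cells and progenitors, was at 9.88, 6.54 and 9.95 against 6.01, 6.09 and 5.83, and the basophil protease Mcpt8 at 9.20, 6.24 and 8.17 against 5.52, 5.79 and 5.59. Knockout replicate 2 lay near the wild types in all 3, and replicates 1 and 3 far above. The smallest p of the list was that of Ms4a2, a chain of the IgE receptor, at 6.41, 4.47 and 5.77 against 4.23, 4.62 and 4.31 (limma adjusted p = 0.69). The IgE receptor chain Fcer1a and the basophil and mast cell protease Cpa3 differed by +2.60 and +2.50, and the mast cell chymase Cma1 was detected on none of the 6 arrays. The list median was 3.05 without knockout replicate 2 and 1.31 with the authors' log2 values, and the within-slide medians were 3.59 on slide 1 and 0.66 on slide 4.

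Neutrophil precursor genes followed. All 9 primary granule genes had a higher knockout mean, with a median of +1.37 (+0.66 with the authors' log2 values), and 6 did not overlap (background 7.99%). Elane, the elastase of the granule, was at 11.27, 11.12 and 10.53 in the knockout and 9.64, 8.95 and 10.20 in wild type. Cebpe, a factor of granulocyte maturation, was at 10.64, 7.53 and 9.82 against 7.36, 7.53 and 6.42, and Fcnb, a granule ficolin, at 11.26, 8.91 and 9.88 against 7.99, 7.97 and 7.84. All 18 maturation genes were on the same side, by a median of +0.94, but every one of them overlapped. Of the 18, 12 were higher without knockout replicate 1, 15 with 75th percentile scaling and 16 with the authors' log2 values. Ltf, the lactoferrin of secondary granules, spanned 12.51 to 14.06 in the knockout and 10.07 to 12.97 in wild type. Wild-type replicate 3 was the lowest array and knockout replicate 1 the highest of this list, at list means of 7.28 and 10.75, and the median was +0.45 without the latter and +0.52 without the former. Neutrophil transcripts were among the brightest of both genotypes, S100a8 at 13.34 to 13.83 in the knockout and 11.81 to 13.39 in wild type.

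**Figure D3:**
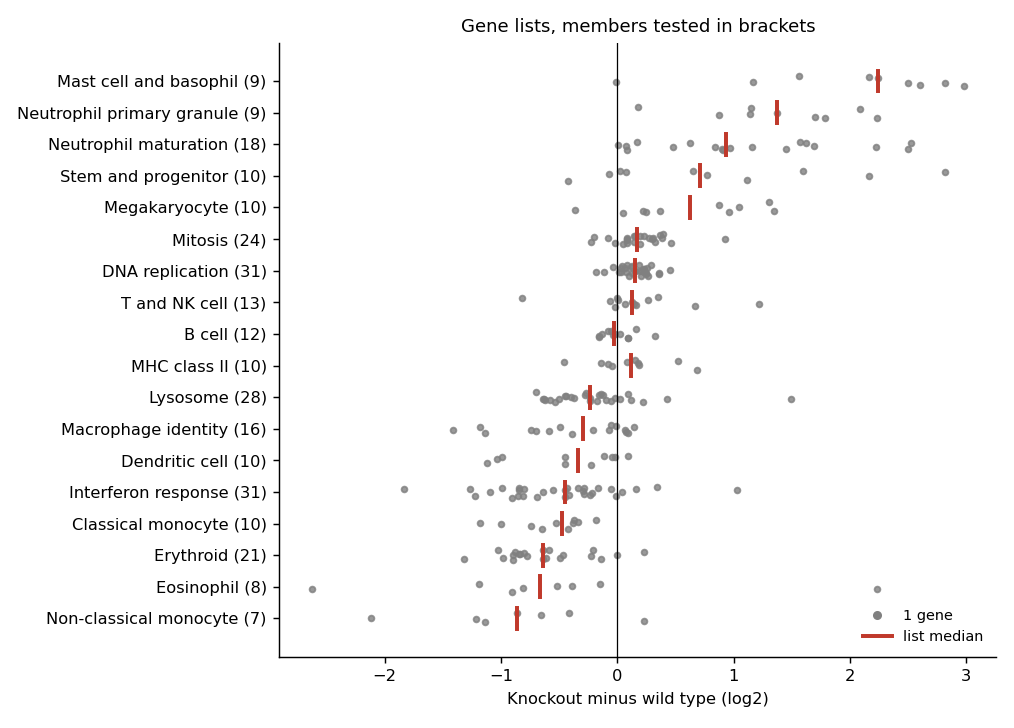
Knockout minus wild-type difference (horizontal axis, log2) of each tested gene (grey points) in 18 lists, with the list median as a bar and the number of genes in brackets. Medians run from +2.24 for mast cell and basophil genes to -0.86 for non-classical monocyte genes.

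Progenitor and megakaryocyte genes lay on the same side as the granulocyte genes. Of the 10 stem and progenitor genes 8 were higher, with a median of +0.71 and 6 of them without overlap (background 7.99%), and 1 lower gene did not overlap either (background 9.66%). The median was +0.24 with the authors' log2 values. Meis1, a homeobox factor of stem cells, was at 7.93, 6.73 and 7.92 in the knockout against 5.93, 6.04 and 5.81, and the surface protein Cd34 at 5.69, 4.80 and 5.24 against 4.46, 4.48 and 4.49. Kit and Gata2 belong to this list and to the basophil list. Of the 10 megakaryocyte genes 9 were higher, by a median of +0.62 (+0.22 with the authors' log2 values), with Treml1, a platelet receptor, at 5.36 ± 0.17 (SD, n = 3) and 4.40 ± 0.20. Mitosis genes were higher in 20 of 24 cases and DNA replication genes in 28 of 31, by medians of only +0.17 and +0.16.

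Red cell, monocyte, eosinophil and interferon genes lay lower in the knockout. Of the 21 erythroid genes 20 had a lower knockout mean, with a median of -0.64, which was -0.25 without knockout replicate 2, -0.41 without wild-type replicate 2, and -0.96 without either knockout replicate 1 or wild-type replicate 3. Klf1, the erythroid master factor, was at 8.78, 7.35 and 9.06 in the knockout and 10.05, 10.26 and 8.85 in wild type, so that the groups overlapped, and the globin Hba-a1 was near the top of the scale in both, at 13.78 ± 0.24 (SD, n = 3) and 14.01 ± 0.06. All 10 classical monocyte genes were lower, with a median of -0.47. Without knockout replicate 1 it was -0.21, with 1 gene higher, and within slides 1 and 4 it was -1.31 and -0.06. Fn1, fibronectin, was at 10.06, 10.72 and 11.33 in the knockout against 11.64, 11.78 and 11.69. The fractalkine receptor Cx3cr1 of the non-classical list was at 8.11, 6.95 and 10.06 against 10.59, 10.71 and 10.18, and that list had a median of -0.86 over 7 genes, 6 of them lower. It was -0.40 without knockout replicate 2, -0.45 without wild-type replicate 2, -1.39 without knockout replicate 1, -1.45 without wild-type replicate 3 and -0.17 with the authors' log2 values. Eosinophil genes were lower in 7 of 8 cases, by a median of -0.67, and split the wild-type arrays: Epx, eosinophil peroxidase, was at 7.59, 8.16 and 4.39 there and at 6.48, 5.07 and 6.14 in the knockout. Wild-type replicate 3 was the low array. Without it the eosinophil median was -1.66, and without replicate 2 it was -0.24. Within slide 1 the eosinophil median was -0.69 and within slide 4 it was +0.04.

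Interferon response genes had a lower knockout mean in 27 of 31 cases, with a median of -0.45, and 8 did not overlap (background 9.66%). Within slide 1 the median was -0.64 and within slide 4 -0.07. Dhx58, a sensor related to RIG-I, was at 8.91, 8.91 and 8.82 in wild type and at 7.95, 8.14 and 8.01 in the knockout. Irf7, which amplifies the interferon response, was at 8.49, 8.90 and 8.0 against 7.11, 7.12 and 7.48, and the antiviral Mx2 at 7.09, 7.20 and 6.95 against 5.52, 5.73 and 6.19. The groups were apart in all 3, whereas Gbp2, Gbp3 and Igtp, which interferon gamma induces, were highest on knockout replicate 2, Gbp2 at 12.09 there. Oas1a, an RNA-activated antiviral synthetase, was at 5.33, 5.42 and 5.24 against 4.31, 4.92 and 4.31. None of the 31 passed, the smallest p being that of Oasl1 (difference -0.99 ± 0.37 (SE), limma adjusted p = 0.75). With the 6 arrays alone in the fit Dhx58 was among the 37 genes called.

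**Figure D4:**
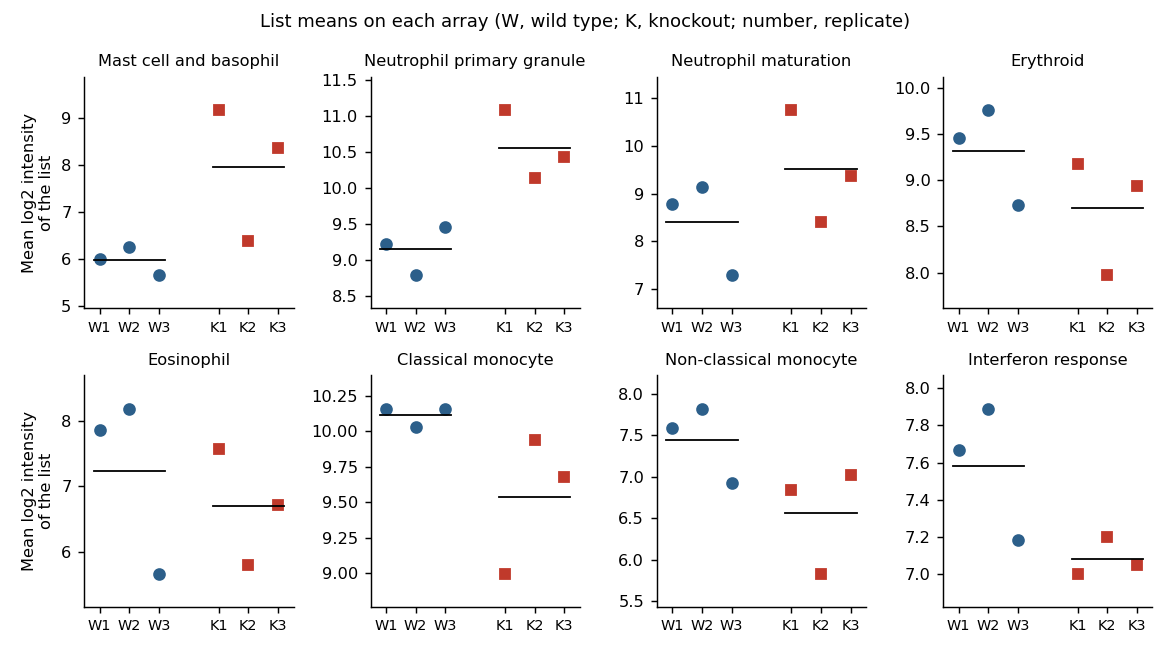
Mean normalised log2 intensity (vertical axis, scaled separately per panel) of 8 gene lists on each array, circles for wild-type replicates W1 to W3 and squares for knockout replicates K1 to K3, with group means as lines. Knockout replicate 2 has the lowest mast cell and basophil mean of the knockouts, 6.39, and wild-type replicate 3 the lowest eosinophil mean, 5.66.

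The sorting marker leaned the same way as the monocyte genes. Adgre1, which encodes F4/80, was at 9.97, 10.07 and 9.24 in wild type and at 8.16, 8.42 and 9.29 in the knockout. The groups overlapped through knockout replicate 3 and wild-type replicate 3, and the difference of -1.14 ± 0.55 (SE) did not pass (limma adjusted p = 0.87), although all 3 probes lay between -1.09 and -1.34. Of the 16 macrophage identity genes 12 were lower, by a median of -0.30 (-0.05 with the authors' log2 values). Axl, a receptor for apoptotic cells, was at 9.36, 9.69 and 8.46 in wild type and 8.04, 6.86 and 8.37 in the knockout, and the receptor Csf1r, on which macrophages depend, at 10.11 ± 0.53 (SD, n = 3) in wild type and 9.37 ± 0.46 in the knockout. Lyz2, the lysozyme of myeloid cells, was bright in both, at 13.83 ± 0.13 in wild type and 13.62 ± 0.28 in the knockout. Timd4, Siglec1 and Marco, markers of resident macrophages, stayed between 4.13 and 4.78, where the lowest detected level of the arrays was 4.40 to 4.49. Lysosome genes were lower in 22 of 28 cases by a median of -0.23 (-0.08 without knockout replicate 1), and dendritic cell genes in 9 of 10 by -0.34 (-0.21 without knockout or wild-type replicate 2). Toll-like receptor pathway genes were lower in 13 of 19 cases by -0.20, which was -0.09 without wild-type replicate 2 and +0.01 within slide 4. B cell genes had a median of -0.03 and were near the detection limit on every array, with list means of 4.54 to 4.76, and MHC class II genes were at +0.11. The latter had no settled sign, at -0.25 without wild-type replicate 3, -0.13 without knockout replicate 2, -0.11 with the authors' log2 values, and -0.66 and +1.25 within slides 1 and 4. What part the basophil, neutrophil, progenitor and erythroid signal has in the called genes was not tested as such. With the neutrophil and erythroid list means of each array in the model 8 genes were called, 5 of them among the 9, and with the mast cell and basophil mean 4 were, all among the 9 (Mif, 1190007I07Rik, Zfp985 and Zfp979).

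Pathways tied to Mif in other settings gave few differences. The p53 list, which Mif is known to restrain, had 13 of 18 genes lower with a median of -0.18 (-0.07 without knockout replicate 2, -0.08 without wild-type replicate 2), and Mdm2 was at 9.25 ± 0.05 (SD, n = 3) in the knockout and 8.95 ± 0.21 in wild type. Of 11 glucocorticoid response genes 9 were lower, by a median of -0.29. The inflammatory list was split evenly, 10 genes on either side of 0 with a median of +0.04 (-0.07 with 75th percentile scaling), Tnf lying at 6.10 ± 0.70 (SD, n = 3) in the knockout and 5.31 ± 0.57 in wild type. Socs3, a feedback inhibitor of cytokine signalling, was at 7.25, 9.95 and 6.67 against 6.22, 6.17 and 6.07. Genes of ERK and PI3K signalling had a median of -0.04, and hypoxia and glycolysis genes one of +0.19, which turned to -0.05 without knockout replicate 2 and was +0.50 without knockout replicate 3. Ldha, lactate dehydrogenase, was at 11.56, 11.38 and 10.76 in the knockout against 10.44, 10.32 and 10.53. Oxidative phosphorylation, proteasome and ribosomal protein genes lay at -0.09, +0.05 and -0.08, the proteasome median turning to -0.11 without knockout replicate 2. Psmb5, a catalytic subunit of the proteasome, stood out in its list, at 7.43, 7.36 and 7.20 in the knockout against 6.01, 6.11 and 6.12, and did not pass (limma adjusted p = 0.38), but was called with the 6 arrays alone in the fit.

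Sex-linked genes were read on all 6 arrays. Xist, the transcript of the inactive X, was below detection on each, at 4.38 or less, and the Y-linked Eif2s3y was at 9.38, 9.65 and 9.43 in wild type and 8.46, 8.29 and 8.36 in the knockout. The Y-linked Kdm5d was likewise lower in the knockout, at 5.62, 5.25 and 5.41 against 6.37, 6.80 and 6.19, without overlap. Neither passed (limma adjusted p = 0.97 and 0.92), with standard errors of 1.57 and 0.75 in a fit that pools the spread of all 8 groups. With the 6 arrays alone Eif2s3y was called and Kdm5d was not.

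Whether the genotype differences belong to non-leukaemic marrow was asked by testing the difference of effects. Against non-leukaemic spleen 0 genes passed in limma (0%), while 535 had a p under 0.05 before adjustment (4.48%). Against leukaemic marrow 0 passed (0%) and 400 had such a p (3.35%). The leukaemic and non-leukaemic mice differ in labelled age, so age and leukaemia cannot be told apart in the latter. The counts rested on single arrays in part. Without wild-type non-leukaemic spleen replicate 2 the former became 37, and without wild-type leukaemic marrow replicate 1 the latter became 5. By their own tests knockout and wild type differed in 32 genes in non-leukaemic spleen (0.268%) and in 5 each in leukaemic marrow and leukaemic spleen (0.0419% each). Before adjustment a p under 0.05 was found for 1220 genes (10.2%) in non-leukaemic spleen, 346 (2.9%) in leukaemic marrow and 631 (5.29%) in leukaemic spleen.

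The called genes recurred in non-leukaemic spleen. Of the 9, 6 were called there (66.7% of the marrow calls and 18.8% of the spleen calls), namely Mif, 1190007I07Rik, Zfp979, Gpn2, Casp9 and Cap1. In leukaemic spleen 4 were (44.4% and 80%), and in leukaemic marrow Mif and 1190007I07Rik (22.2% and 40%). All 9, the deleted gene Mif among them, had the same sign in each of the other 3 settings. The arrays there are different ones, but the labels do not say which share an animal with the 6 marrow arrays. Casp9 differed by +4.90 in non-leukaemic spleen, +3.17 in leukaemic spleen and +0.82 in leukaemic marrow, and Cap1 by -4.44, -4.16 and -1.02. In leukaemic marrow 7 of the 9 differences were smaller in size than in non-leukaemic marrow. Nlgn2 was at +0.03 ± 0.11 (SE) there, so its sign says little, and Gpn2 at +0.59 ± 0.34. In leukaemic wild-type marrow Casp9 was at 8.58 to 8.69 on 4 of the 5 arrays and at 4.28 on replicate 1, so most wild-type arrays there were at the knockout level. Zfp985 was detected on 2 of those 5 arrays. Of the 20 uncalled genes, 19 kept their sign in non-leukaemic spleen, where 7 were called (Supt16, Srpr, Zfp933, C1galt1, Tmem71, Atrnl1 and Fmr1). In leukaemic marrow 15 kept it, with 5 of the 10 lower ones among them, and 1 was called. In leukaemic spleen 16 kept it and 0 were called. The share of all genes tested that keep their sign was not counted. The exception in non-leukaemic spleen was Klk1b26, at +0.10 ± 0.26 (SE) there, +0.07 ± 0.19 in leukaemic marrow and +0.32 ± 0.24 in leukaemic spleen. Klk1b21 and Klk1b5 were at -0.22 and -0.04 in non-leukaemic spleen and above 0 in both leukaemic tissues. The difference of the Klk1b26 effects was not called (limma adjusted p = 0.93 against non-leukaemic spleen). Rnase2a was at -1.48, +1.58 and -0.71 in those settings, and its difference of effects against leukaemic marrow, -5.67 ± 1.28, was not called with all arrays. It was called without wild-type leukaemic marrow replicate 1 and with array weights.

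**Figure D5:**
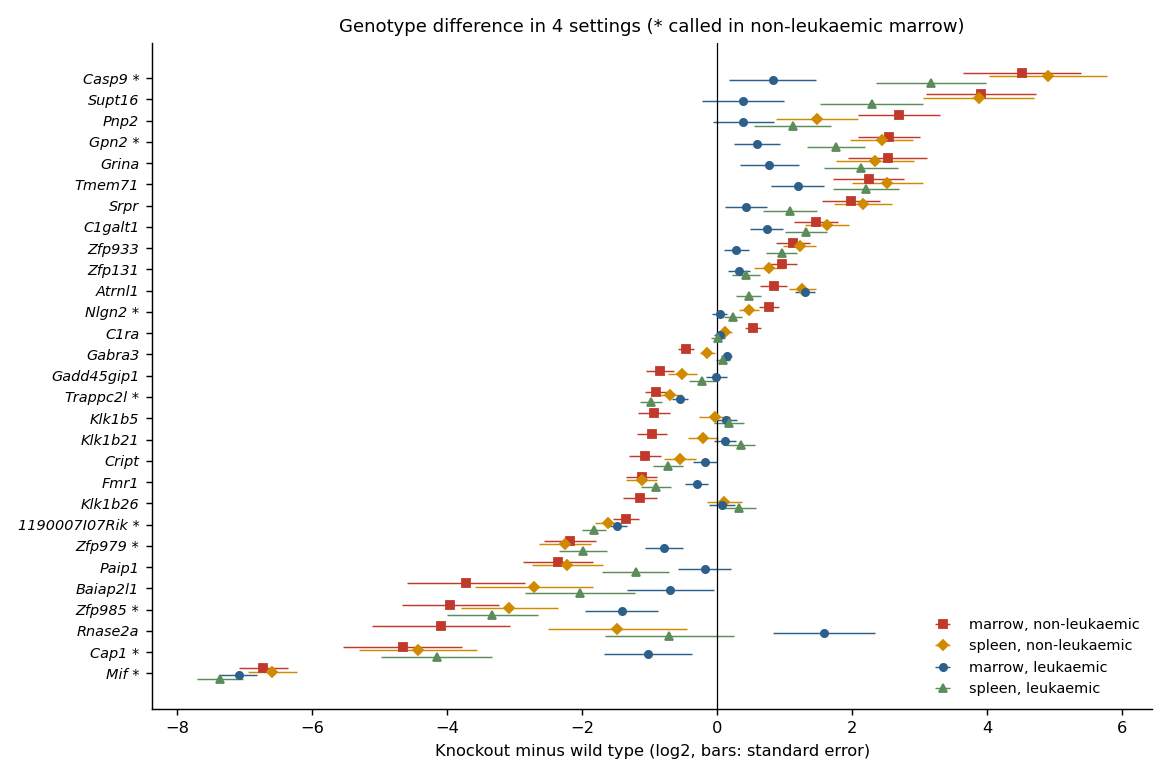
Knockout minus wild-type difference (horizontal axis, log2, with standard errors) of the 9 called genes, marked by a star, and 20 uncalled genes, in the 4 settings of tissue and leukaemia. The 20 have the smallest p among uncalled genes detected on all 3 arrays of the brighter group. In leukaemic marrow Casp9 is at +0.82 and Cap1 at -1.02, nearer 0 than in the other 3 settings.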

How the data were processed

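Sorted cells had been lysed in Trizol and their RNA labelled as biotin cRNA, 1 bead array per sample, per the labels' protocols. The deposited table that was not normalised gives the authors' linear intensity and a detection p-value for 45281 probes. A second deposited table gives the authors' log2 values (median 6.41 per array). How those were normalised and centred is not stated in the labels. Partek is named in the submitters' processing notes. Intensities were background-corrected and quantile normalised with neqc (offset 16, background inferred from the detection p-values) of limma 3.58.1 in R 4.3.3. Probes with a detection p under 0.05 on at least 3 of 30 arrays were kept (23515), and the brightest kept probe of each gene was used. Names came from the platform annotation, with 34885 probes having 1 symbol, 18 several and 10378 none, updated by gene ID through RefSeq GRCm38.p6 (34807 probes). The build of the array is not given, so probes have no positions here. The promoter coordinates are those of RefSeq GRCm38.p6.

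One limma model (lmFit, eBayes) held all 8 groups and 30 arrays, with Benjamini-Hochberg adjustment over all 11937 genes, threshold 0.05, two-sided. The number of arrays limits the precision. Lists are described by counts and medians, without a test. Members and the 38 lists were chosen with earlier results of these data known. The genes named are Mif and Adgre1, all called genes, the 10 uncalled genes per direction with the smallest p and the 5 with the largest difference without overlap, and per list its called members or the 2 with the smallest p. Further list members, Klk1 and Klk1b27 were picked after their values were seen. The fit was tested on simulated data. Alternatives were the authors' log2 values, other background, scaling, filters and probes, slide or replicate number as a block, the 6 arrays alone, array weights, list means or Xist as covariates, and leaving out each array.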

Additional observations from a re-analysis of the deposited data

Results flagged for a closer look

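Casp9 in leukaemic wild-type marrow was at a normalised log2 intensity of 4.28 on replicate 1 and at 8.58 to 8.69 on the other 4 arrays, so 1 array stood apart from its group. That array is the one at the level of the non-leukaemic wild-type marrow arrays. Gpn2 on the same array was at 6.17, against 8.28 to 8.40 on the others. The named genes were looked at in this way in 30 sets of gene and group, and chance sets apart about 1 set in 20.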

How the results depend on the processing

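The count of 9 genes was 9 without background correction, with 75th percentile scaling (which moved the median of all genes to -0.11), with slide as a random block and with the Xist covariate, 8 without a filter and with the neutrophil and erythroid covariates, and 11 with all kept probes tested. It was 35 (14 higher, 21 lower) with the authors' log2 values, 37 (18 and 19) with the compared groups alone, 1448 (723 and 725) with array weights, 5 with the strict filter (2 and 3), which tests 8401 genes, and 5 (1 and 4) with slide as a fixed block. With the mast cell and basophil covariate, added after seeing the data, it was 4, all lower. Leaving out 1 array gave 2 to 5. The replicate block gave 5 (1 and 4): the replicate numbers share no label of animal or batch, same-numbered arrays deviated from their group means with correlations of 0.19, -0.42 and 0.05, and the fit is given for the count alone. For spleen, no paired analysis was possible because the groups share no replicate numbers. For the difference from non-leukaemic spleen the 0 became 2 with array weights and 0 to 37 without 1 array, the 37 (34 higher, 3 lower) without wild-type spleen replicate 2. For the difference from leukaemic marrow it became 23 (11 and 12) with array weights and 0 to 5 without 1 array. The cause of these moves was not tested. All 9 called genes kept their direction in every fit that held their probe. Mif was called in 20 of 20 and 1190007I07Rik in 19 of 19, Casp9 and Cap1 in 9 of 20 each, and Nlgn2 in 7 of 20, the fewest. Of the 38 list medians 23 kept their sign in all 11 settings. The knockout arrays varied more, with a median SD of 0.20 per gene against 0.15 and correlations between pairs of 0.95 to 0.976 against 0.977 to 0.994.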

Other observations

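Of the lists not described above, that of erythroblastic island and iron recycling genes had the median furthest from 0, at -0.32 (-0.07 with the authors' log2 values). Of its 17 genes 11 were lower, 4 of them without overlap (background 9.66%). Plasma cell, T and NK cell, stromal and endothelial, and osteoclast genes lay at +0.06, +0.13, -0.05 and -0.02. The first 2 turned to -0.31 and -0.15 with 75th percentile scaling. Early response, complement and Fc receptor, and cholesterol genes lay at +0.08, -0.03 and -0.05. Within them C1qb, a chain of the complement recognition protein, was at 6.78, 8.97 and 5.82 in the knockout and 5.56, 5.80 and 5.03 in wild type, and Apoe, the lipid carrier of macrophages, at 8.83, 7.45 and 9.54 against 10.36, 10.59 and 9.54. Neither passed (limma adjusted p = 0.94 and 0.87). Among the uncalled genes without overlap that differed most, Lrg1, a glycoprotein of neutrophil granules, was at 12.58, 9.96 and 10.17 against 8.04, 8.60 and 6.22. Rnase4, a secreted ribonuclease, was at 6.65, 7.19 and 7.65 against 9.28, 9.35 and 9.01, but a second, dimmer probe differed by +0.18. Ccnd2, cyclin D2, differed by +2.76, with further probes at +2.45, +0.35 and -0.24.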
